A study of Mus musculus with 12 samples.

Results

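The genes described here are NFE2 and the factors that share its DNA sites, 9 genes in all out of the 17210 in the count table: Nfe2, Nfe2l1 and Nfe2l2, which encode the activating subunits, Keap1, which encodes the protein that restrains NRF2 (the product of Nfe2l2), the small MAF genes Mafk, Mafg and Maff, and the repressor genes Bach1 and Bach2. They were taken by symbol and all 9 were found. Their mRNA was measured by sequencing in 12 libraries of G1E-ER4 cells, a mouse erythroid progenitor line that lacks its own GATA1 and carries GATA1 fused to the hormone-binding part of the human estrogen receptor, so that β-estradiol (EST) switches GATA1 on. There were 4 groups of 3 libraries. Vector cells received an empty retrovirus for 24 h and then vehicle for 6 h, Vector+EST cells the empty retrovirus and then EST for 6 h, SREBP2 cells a retrovirus for the active fragment of SREBP2 (residues 1 to 468, FLAG-tagged) and then vehicle, and SREBP2+EST cells that retrovirus and then EST. The dose of EST was 500 nM by the sample protocol and 200 nM by the series design text. All groups therefore shared the line, the GATA1 fusion and a retroviral infection, and the comparisons hold for 1 line and 1 time after EST. The paper on these data reports that added SREBP2 also brought the GATA1 fusion into the nucleus without EST. An SREBP2 effect without EST therefore cannot be told apart here from an effect of GATA1. The strain label was C57BL/6J.

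NFE2, NRF1 (encoded by Nfe2l1) and NRF2 are CNC basic leucine zipper proteins that bind DNA only as a pair with a small MAF protein, at sites close to the antioxidant response element. Small MAF proteins have no activating part of their own, and BACH1 and BACH2 pair with the same small MAF proteins at the same sites and repress them. Heme binds BACH1 and takes it off DNA, KEAP1 hands NRF2 to the proteasome, and NRF1 is known for restoring proteasome genes when the proteasome is short. In red cell precursors NFE2 paired with MAFK acts at the globin locus, and in megakaryocytes NFE2 drives platelet release.

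The sequence upstream of the start site is shown for 5 of the 6 members that rose with SREBP2 without EST. Promoter windows in the RefSeq table for GRCm38.p6 matched 8 of the 9 genes with 14 windows, Nfe2 being the other gene, and 6 motifs were searched on both strands in the 250 bases before each start. Capitals mark the E-box CACGTG and the core of the antioxidant response element, TGACNNNGC, in either direction. Nfe2l2, the other member that rose, held no E-box and is not shown, nor are further windows of Maff and Nfe2l1. The windows shown include all 3 member windows with an E-box, so they overstate its share. The 5 windows below run 5′ to 3′ in the direction of transcription.
Mafk (chr5:139791286-139791535, plus strand): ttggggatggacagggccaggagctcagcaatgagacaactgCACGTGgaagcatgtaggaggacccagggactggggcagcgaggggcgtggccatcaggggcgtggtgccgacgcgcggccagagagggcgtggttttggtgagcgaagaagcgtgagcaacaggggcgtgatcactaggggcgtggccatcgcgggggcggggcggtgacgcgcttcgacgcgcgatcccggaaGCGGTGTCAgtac
Mafg (chr11:120633548-120633797, minus strand): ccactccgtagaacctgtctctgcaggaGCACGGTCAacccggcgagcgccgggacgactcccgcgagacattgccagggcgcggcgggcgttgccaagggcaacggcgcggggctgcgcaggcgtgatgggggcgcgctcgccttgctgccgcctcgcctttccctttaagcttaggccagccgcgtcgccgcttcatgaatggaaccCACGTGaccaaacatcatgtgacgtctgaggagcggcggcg
Maff (chr15:79347270-79347519, plus strand): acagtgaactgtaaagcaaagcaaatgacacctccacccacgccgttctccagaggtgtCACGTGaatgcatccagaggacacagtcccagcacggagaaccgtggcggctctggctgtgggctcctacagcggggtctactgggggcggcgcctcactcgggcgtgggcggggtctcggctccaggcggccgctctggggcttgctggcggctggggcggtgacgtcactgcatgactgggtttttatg
Bach1 (chr16:87698704-87698953, plus strand): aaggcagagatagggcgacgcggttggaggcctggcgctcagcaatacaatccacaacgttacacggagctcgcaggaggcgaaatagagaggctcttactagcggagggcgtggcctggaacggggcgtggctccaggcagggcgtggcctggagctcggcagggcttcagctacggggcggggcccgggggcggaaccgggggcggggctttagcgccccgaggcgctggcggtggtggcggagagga
Nfe2l1 (chr11:96829969-96830218, minus strand): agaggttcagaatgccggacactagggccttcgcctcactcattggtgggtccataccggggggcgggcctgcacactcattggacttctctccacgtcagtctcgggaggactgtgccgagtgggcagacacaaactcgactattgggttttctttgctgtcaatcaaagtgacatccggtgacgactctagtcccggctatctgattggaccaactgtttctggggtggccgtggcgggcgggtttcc

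The E-box, which SREBP proteins can bind, stood in the windows of Mafk, at -208 to -203 from the start, of Mafg, at -41 to -36, and of 1 of the Maff windows, at -191 to -186. It was found in 6.02% of the 32851 windows of all genes. The antioxidant response element core stood in the windows of Mafk (-13 to -5), Mafg (-222 to -214), Nfe2l2 (-240 to -232) and another Maff window (-112 to -104), against 10.2% of all windows. No member window held the classical sterol regulatory element of the LDL receptor gene (0.0731% of all windows) or the AP-1 site TGACTCA (4.46%). The GATA letters AGATAA were found for Keap1 and Maff (9.99% of all windows) and TGATAA for Bach2 (7.94%). Bach1 and Nfe2l1, which had the largest rises among the well-expressed members, held none of the 6 motifs in these windows. Among the 11517 windows of tested genes, which all members are, the shares were 8.29% for the E-box, 11.6% for the antioxidant core, 2.96% for TGACTCA, 0.0347% for the sterol element, 6.49% for AGATAA and 4.19% for TGATAA. A match is a description of the letters and not of binding.

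Depth was nearly level, from 18700959 to 19152281 estimated counts a library, and 3 counts, taken as the limit of detection, came to 0.157 to 0.16 CPM (a gene's counts scaled to a common library total). Levels below are CPM scaled with TMM factors (trimmed mean of M values), with the mean ± SD of 3 libraries. The labels do not say that libraries of a group came from separate cultures, so p-values measure only the spread between these libraries. A library is named by its group and its header number. Srebf2, the mouse gene for SREBP2, ranged from 797 to 837 CPM in the 6 SREBP2 and SREBP2+EST libraries. It ranged from 355 to 456 CPM in the other 6. For cells of this line with added SREBP2, the paper reports mRNA levels of human SREBP2. The counts here are of the mouse gene, and reads of the cells' own and of the introduced gene were not separated. The Srebf2 level is therefore not a measure of the introduced gene, whose share in it was not tested. The labels call the cells embryonic stem cells, but of 8 embryonic stem cell markers 4 were in the table and 3 of these (Sox2, Esrrb and Dppa5a) stayed at or under 3 counts in every library, whereas the 10 erythroid markers summed to 9691 to 10117 CPM in the Vector libraries and to 6310 to 7482 CPM in the other 9. Members of the erythroid sum went different ways. From Vector to Vector+EST, Hba-a1 went from 3089 to 1736 CPM and Gata1 from 1769 to 452 CPM, while Alas2 went from 52.1 to 138 CPM. The part of this difference in the erythroid sum in the results was not tested.

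A pair of libraries stood apart from their groups. By a chi-square statistic per gene, SREBP2 library 1 differed from SREBP2 libraries 3 and 5 by 7.95 and 10.3, against 2.59 between libraries 3 and 5, and SREBP2+EST library 1 differed from libraries 2 and 5 of its group by 6.06 and 6.16, against 2.27. On the first principal component SREBP2 library 1 (29.6) lay beside SREBP2+EST libraries 2 and 5 (31.01 and 31.2), and SREBP2+EST library 1 (26.1) lay between those and SREBP2 libraries 3 and 5 (22.5 and 22.4). On the second, SREBP2 library 1 (9.81) lay with SREBP2+EST libraries 2 and 5 (9.04 and 9.41), and SREBP2+EST library 1 (16.1) with SREBP2 libraries 3 and 5 (17.9 and 17.4). The EST effect in SREBP2 cells rests on these libraries most and is given with and without both, and so are the Nfe2 results. Leaving both out changed no member's call for the SREBP2 effect with or without EST. Both were singled out in these same data by their likeness to the other group. Leaving them out therefore widens the EST contrast in SREBP2 cells by selection, and p-values without them are descriptive. Summed over Col1a1, Igfbp7, Fn1 and Mmp2, transcripts of connective tissue cells reached 12.3 to 27.2 CPM in every library of SREBP2+EST and in library 5 of Vector+EST, and 0.0509 to 0.309 CPM in the other 8. By these transcripts SREBP2 library 1 (0.159 CPM) and SREBP2+EST library 1 (13.7 CPM) were each like the group of their own label, unlike by the principal components. The same transcripts split Vector+EST, with libraries 1 and 3 at 0.309 and 0.105 CPM, so they cannot tell which group a library belongs to. Whether the 2 libraries were exchanged was not tested, and an exchange would alter every EST value in SREBP2 cells. All 6 fibroblast markers were in the table, and their sum ranged from 19.2 to 19.9 CPM in Vector, 4.70 to 36.3 CPM in Vector+EST, 4.02 to 5.42 CPM in SREBP2 and 18.6 to 35.1 CPM in SREBP2+EST. The 6 macrophage and granulocyte markers summed to 2.15 to 4.69 CPM over all libraries, with Adgre1, Lyz2, Mpo and Elane at or under 3 counts in each, and the 7 neural markers to 10.3 to 12.3 CPM in Vector and 2.02 to 5.42 CPM elsewhere. The part of these transcripts in the results was not tested.

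All 9 genes passed the filter on low counts, Maff on 11 to 74 counts a library and Bach2 on 9.92 to 30.56, and differences were tested by edgeR's quasi-likelihood F-test with Benjamini-Hochberg adjustment over the 11177 genes tested. EST in Vector cells raised 4 of the 9 (Bach1, Mafk, Maff and Nfe2l2) and lowered 3 (Nfe2, Mafg and Keap1), where 70.6% of all tested genes passed the threshold, 35.2% upward and 35.5% downward. SREBP2 without EST raised 6 (Bach1, Maff, Nfe2l1, Mafk, Nfe2l2 and Mafg) and lowered Keap1, where 71.5% of all genes passed, 37.7% upward and 33.8% downward. In both comparisons 7 of 9 is thus close to the general rate. SREBP2 with EST, the comparison of SREBP2+EST against Vector+EST, raised 6 (Nfe2l1, Maff, Nfe2, Mafg, Bach1 and Mafk) and lowered Nfe2l2, where 21.9% of all genes passed, 14% upward and 7.94% downward. Under scaling by library totals the same 7 members passed in that comparison, although 42.2% of all calls were then upward, against 1560 upward and 888 downward calls under TMM. Libraries of the groups compared did not overlap for 7 of the 9 genes under EST in Vector cells (75.7% of all genes), for 8 under SREBP2 without EST (74.8%), for 8 under SREBP2 with EST (38.1%) and for 3 under EST in SREBP2 cells (7.43%).

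**Figure D1:**
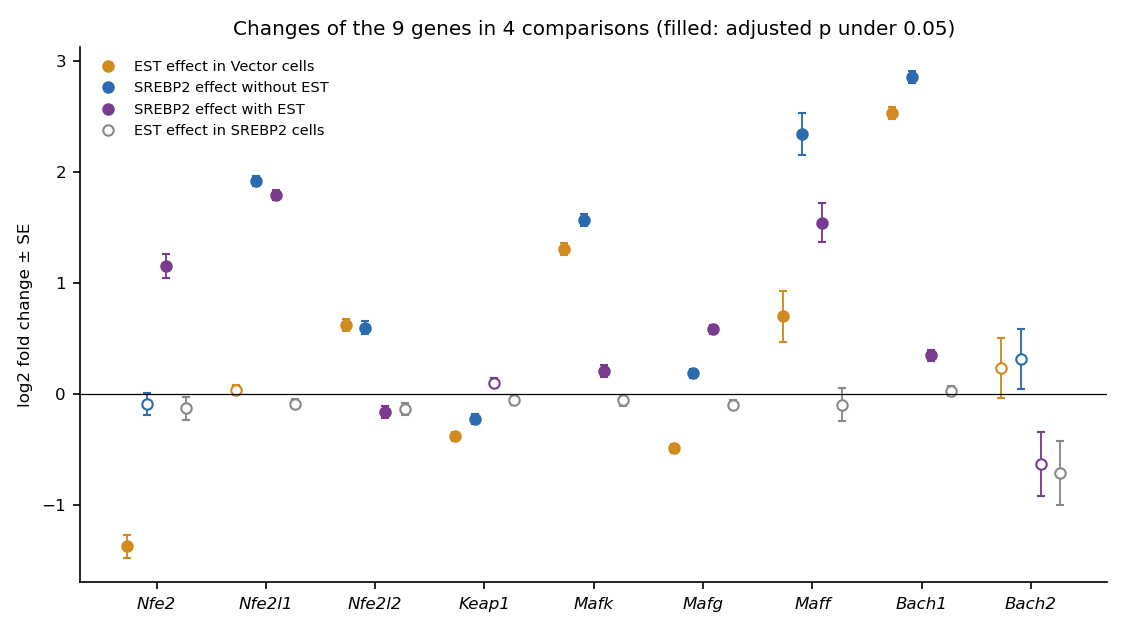
Log2 fold changes (y axis) of the 9 genes (x axis) in 4 comparisons, as points with the standard error of the edgeR fit, filled where the adjusted p was under 0.05. The EST effect in SREBP2 cells has only open points, Nfe2 is the lowest filled point at -1.38 and Bach1 the highest at 2.86.

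Nfe2 (Entrez 18022, chr15:103248212-103258403, minus strand, GRCm38) encodes the erythroid and megakaryocytic CNC subunit. It stood at 263, 265 and 262 CPM in the Vector libraries and at 102, 94.2 and 108 CPM in the Vector+EST libraries, in the order of the library numbers. It stood at 200.4, 268 and 273 CPM in the SREBP2 libraries and at 260.4, 198 and 219 CPM in the SREBP2+EST libraries. The Vector+EST libraries were the lowest 3 of the 12 and overlapped no other group, and within both SREBP2 groups library 1 had the level of the other group. Nfe2 fell with EST in Vector cells from 263 ± 1.53 CPM to 101 ± 6.70 CPM, which is 2.60-fold (log2 fold change -1.38 ± 0.11, SE; adjusted p = 7.19e-09). With EST, SREBP2 cells had 2.23-fold more Nfe2 than Vector cells, 226 ± 31.8 against 101 ± 6.70 CPM (1.15 ± 0.11 on the log2 scale, adjusted p = 4.38e-07). Without both libraries 1 this was 1.04 (adjusted p = 3.95e-13). Without EST, the SREBP2 group stood at 247 ± 40.6 CPM and its difference from Vector did not pass (log2 fold change -0.09, 95% interval -0.31 to 0.12, adjusted p = 0.434). This estimate was 0.039 without SREBP2 library 1 and -0.0012 without both libraries 1.

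For EST in SREBP2 cells, the Nfe2 log2 fold change was -0.13 (95% interval -0.35 to 0.08, adjusted p = 0.919). Without SREBP2 library 1 and SREBP2+EST library 1 it was -0.38 and passed the threshold (adjusted p = 3.88e-05), so a fall of Nfe2 with EST in SREBP2 cells was found or not found according to these 2 libraries. Each had the Nfe2 level of the other group, so leaving them out enlarges this difference by selection. Tested as an interaction, the EST effect on Nfe2 in SREBP2 cells lay above that in Vector cells by 1.25 ± 0.15 on the log2 scale (adjusted p = 2.19e-06), and by 1.04 (adjusted p = 2.61e-11) without both libraries. This pattern of Nfe2 was known when the genes were chosen, so these p-values are descriptive. The 3 SREBP2+EST libraries all lay below the Vector libraries, at a difference of -0.22 on the log2 scale (adjusted p = 0.0596), which became -0.38 (adjusted p = 1.87e-07) without both, -0.34 (adjusted p = 0.00570) without SREBP2+EST library 1 alone and -0.28 (adjusted p = 0.0154) when scaled by library totals. This difference also passed with scaling by relative log expression (adjusted p = 0.0374), without a low-count filter (0.0202) and with at least 10 counts in every library (0.0288). With only the 6 libraries compared it was -0.26 (adjusted p = 0.00621). Of the 12 fits that left out 1 library each, 3 passed, and the values ran from -0.34 to -0.16, the last without SREBP2+EST library 2 (adjusted p = 0.193). Vector+EST library 5, which carried the fibroblast transcripts, had 108 CPM of Nfe2, and the EST effect in Vector cells was -1.44 without it (adjusted p = 6.74e-08) and -1.41 without both libraries 1 of the SREBP2 groups (adjusted p = 5.69e-17). Of 7 markers of megakaryocytes, which also use NFE2, 6 were in the table, with Vwf at or under 3 counts in all libraries, and their sum ranged from 39.1 to 43.5 CPM in Vector, 13.3 to 15.1 in Vector+EST, 47.6 to 64.1 in SREBP2 and 48.7 to 60.8 in SREBP2+EST. Its members went different ways, since from Vector to SREBP2 Pf4 went from 9.46 to 47.7 CPM while Itga2b went from 28.1 to 7.23 and Gp9 from 2.86 to 0.772. Pf4, Itga2b, Gp9 and Tubb1 are also counted among the NFE2 targets and make up most of the sum. The part of these markers in the Nfe2 result was not tested, and in these bulk libraries fewer cells of a type and less RNA per cell cannot be told apart.

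**Figure D2:**
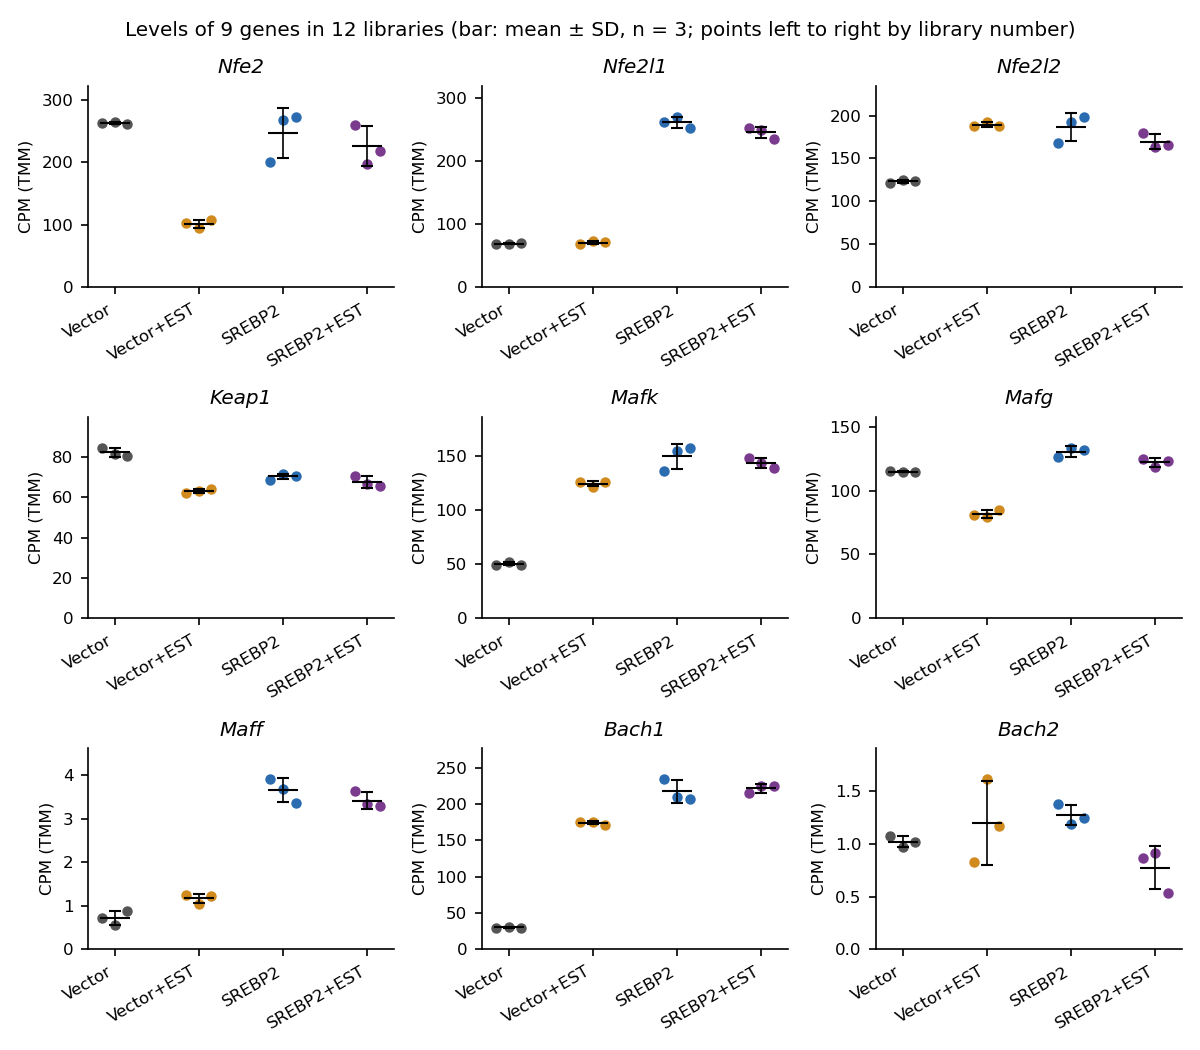
Level of each gene (y axis, CPM after TMM scaling, starting at 0) in the 4 groups (x axis), with 1 point a library, from left to right in the order of the library numbers, and the mean ± SD of 3 libraries as a bar. Nfe2 is lowest in Vector+EST and spreads most in the SREBP2 groups, Nfe2l1 is high in both SREBP2 groups only, and Bach1 and Mafk are low in Vector only.

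Nfe2l1 (Entrez 18023, chr11:96817414-96829968, minus strand) encodes NRF1, which is made at the endoplasmic reticulum and acts on proteasome genes once it is freed. It stood at 68.9, 69.2 and 70.1 CPM in Vector, 68.4, 73.1 and 71.6 CPM in Vector+EST. With added SREBP2 it stood at 263, 271 and 254 CPM in SREBP2 and 253, 250.1 and 236 CPM in SREBP2+EST. All 6 libraries with added SREBP2 lay far above the other 6, and the 2 groups without it overlapped. SREBP2 raised Nfe2l1 by a log2 fold change of 1.92 ± 0.04 without EST (3.78-fold, adjusted p = 2.12e-15) and of 1.79 ± 0.04 with EST (3.47-fold, adjusted p = 1.14e-14). For EST in Vector cells the estimate was 0.03 ± 0.04 (95% interval -0.06 to 0.13, adjusted p = 0.513), and the interaction did not pass the threshold (-0.12, adjusted p = 0.0835), except without SREBP2 library 5 (-0.15, adjusted p = 0.0445). Among the 9 genes it had the largest change in SREBP2+EST against Vector+EST, and 98.5% of all tested genes had a smaller one.

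Nfe2l2 (Entrez 18024, chr2:75675513-75704641, minus strand) encodes NRF2, the main activator of antioxidant genes. Its levels were 121, 125 and 123 CPM in Vector and 188, 192 and 188 CPM in Vector+EST. In SREBP2 they were 168, 193 and 199 CPM and in SREBP2+EST 179.6, 163 and 166 CPM. The Vector libraries lay below the other 9, among which the order was less clear. It rose with EST in Vector cells by 0.62 ± 0.05 on the log2 scale (adjusted p = 4.02e-08) and with SREBP2 without EST by 0.60 ± 0.05 (adjusted p = 5.85e-08). With EST, SREBP2 cells had slightly less (-0.16 ± 0.05, adjusted p = 0.0439), a call that held in 4 of the 12 fits that left out 1 library each, where the adjusted p ranged from 0.00414 to 0.141. It was lost without Vector library 1 or 5, any Vector+EST library, SREBP2 library 3 or SREBP2+EST library 2 or 5, and with the header number as a block (-0.13, adjusted p = 0.213), and without both libraries 1 of the SREBP2 groups it was -0.21 (adjusted p = 7.18e-05). The interaction was -0.76 ± 0.08 (adjusted p = 4.39e-07).

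Keap1 (Entrez 50868, chr9:21229730-21239361, minus strand) encodes the adaptor that marks NRF2 for degradation. It ranged from 80.7 to 84.6 CPM in Vector, 62.2 to 63.9 CPM in Vector+EST, 68.8 to 71.7 CPM in SREBP2 and 65.4 to 70.7 CPM in SREBP2+EST. The Vector libraries were the highest 3 and the Vector+EST libraries the lowest 3. Its change with EST in Vector cells was -0.38 ± 0.04 on the log2 scale (adjusted p = 5.45e-07) and with SREBP2 without EST -0.23 ± 0.04 (adjusted p = 0.000151). Keap1 therefore fell in the comparisons in which Nfe2l2 rose. With EST the SREBP2 difference was 0.10 (adjusted p = 0.115), and the interaction was 0.33 ± 0.06 (adjusted p = 0.000217).

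Mafk (Entrez 17135, chr5:139791513-139802653, plus strand), the usual partner of NFE2 in erythroid cells, stood at 49.4, 51.8 and 49.5 CPM in Vector and at 126, 122 and 126 CPM in Vector+EST. It stood at 136, 154 and 157 CPM in SREBP2 and at 148, 144 and 139 CPM in SREBP2+EST. Vector was lowest, Vector+EST came next, and both SREBP2 groups lay above it without overlap. The EST effect in Vector cells was a log2 fold change of 1.31 ± 0.05 (2.47-fold, adjusted p = 3.62e-12) and the SREBP2 effect without EST 1.57 ± 0.05 (2.97-fold, adjusted p = 2.95e-13). SREBP2 with EST added 0.21 ± 0.05 (adjusted p = 0.00771), or 0.20 (adjusted p = 0.0550) with the header number as a block, and the interaction was -1.37 ± 0.07 (adjusted p = 2.55e-10). Mafk overlaps Tmem184a on the opposite strand in the GENCODE annotation. Whether strand was used in counting is not given in the sources used here.

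Mafg (Entrez 17134, chr11:120625117-120633600, minus strand) moved in the other direction under EST. Its 12 values were 115, 115 and 114 CPM in Vector, 80.9, 79.02 and 85.1 CPM in Vector+EST, then 126, 134 and 132 CPM in SREBP2 and 124, 119 and 123 CPM in SREBP2+EST. Vector+EST was the lowest group and overlapped none of the others. Mafg fell 1.41-fold with EST in Vector cells (log2 fold change -0.49 ± 0.04, adjusted p = 1.86e-08), SREBP2 without EST raised it by 0.18 ± 0.04 (adjusted p = 0.000595), and SREBP2 with EST raised it by 0.58 ± 0.04 (1.49-fold, adjusted p = 1.63e-08). The interaction was 0.40 ± 0.06 (adjusted p = 1.98e-05). Mafg overlaps Sirt7 on the same strand, and none of its 12 counts was a whole number, so reads may have been divided between the 2 genes.

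Maff (Entrez 17133, chr15:79346621-79359076, plus strand), a small MAF gene known to be induced by stress, had few counts in every library, from 11 in a Vector library to 74 in an SREBP2 library. It stood at 0.718, 0.560 and 0.870 CPM in Vector, 1.24, 1.05 and 1.22 CPM in Vector+EST, then 3.92, 3.68 and 3.36 CPM in SREBP2 and 3.63, 3.34 and 3.28 CPM in SREBP2+EST. The 6 libraries with added SREBP2 were the highest and the 3 Vector libraries the lowest. SREBP2 raised it 5.07-fold without EST (log2 fold change 2.34 ± 0.19, adjusted p = 1.26e-08) and 2.92-fold with EST (1.54 ± 0.18, adjusted p = 5.95e-06). EST in Vector cells raised it by 0.70 ± 0.23 (adjusted p = 0.0181), a call that was lost without Vector library 4 (adjusted p = 0.128), Vector+EST library 1 (0.0529) or Vector+EST library 5 (0.0530) and by DESeq2 (adjusted p = 0.0573). Its interaction of -0.80 ± 0.27 (adjusted p = 0.0207) was lost without Vector library 4 (-0.61, adjusted p = 0.111), without Vector+EST library 1 (-0.75, adjusted p = 0.0510), without both libraries 1 of the SREBP2 groups (-0.75, adjusted p = 0.0545), with the header number as a block (-0.73, adjusted p = 0.0955) and by DESeq2 (adjusted p = 0.0835).

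Bach1 (Entrez 12013, chr16:87698945-87733346, plus strand), which encodes the heme-sensing repressor, had the largest change of the 9 genes. It stood at 29.8, 31.3 and 28.96 CPM in Vector and at 176, 175 and 172 CPM in Vector+EST. In SREBP2 it stood at 235, 209.8 and 207 CPM and in SREBP2+EST at 215, 224 and 225 CPM. All 9 libraries with EST, SREBP2 or both lay above the Vector libraries, and both SREBP2 groups lay above Vector+EST. EST in Vector cells raised it 5.80-fold (log2 fold change 2.54 ± 0.05, adjusted p = 2.99e-15) and SREBP2 without EST raised it 7.24-fold (2.86 ± 0.05, adjusted p = 4.65e-16). With EST the SREBP2 difference was 0.35 ± 0.05 (1.27-fold, adjusted p = 3.85e-05), and the interaction was -2.51 ± 0.07 (adjusted p = 2.43e-13). Among all tested genes 97.9% had a smaller EST effect in Vector cells and 98.2% a smaller SREBP2 effect without EST.

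Bach2 (Entrez 12014, chr4:32238804-32586108, plus strand), known for its role in B and T cells, was barely detected. It ranged from 0.968 to 1.08 CPM in Vector, 0.824 to 1.62 CPM in Vector+EST, 1.19 to 1.38 CPM in SREBP2 and 0.538 to 0.915 CPM in SREBP2+EST. Its estimated counts carried decimals in all 12 libraries, and rounding changed a value by up to 2.41%. It passed the threshold in none of the 7 comparisons by edgeR, with unadjusted p-values of 0.0445 for SREBP2 with EST, 0.0252 for EST in SREBP2 cells and 0.0301 for the interaction, and its 95% intervals were wide (-0.35 to 0.81 for EST in Vector cells). The interaction was -0.95 and passed with at least 10 counts required in every library (-0.91, adjusted p = 0.0427), without Vector+EST library 1 (-1.16, adjusted p = 0.0173) and without SREBP2+EST library 2 (-1.07, adjusted p = 0.0482), while the 12 fits that left out 1 library each ran from -1.16 to -0.67.

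For EST in SREBP2 cells, 0 of the 9 genes passed by edgeR and 0 by DESeq2, and 4 had an unadjusted p under 0.05 (Nfe2l1, Nfe2l2, Mafg and Bach2). Of all 11177 genes 0 (0%) passed by edgeR and 12 by DESeq2, with 506 (4.53%) at an unadjusted p under 0.05. Without SREBP2 library 1 and SREBP2+EST library 1, 1567 of the 11292 genes then tested (13.9%) passed, and 5 of the 9 were among them. More calls are built into this choice of libraries, so these counts are descriptive. Nfe2 (-0.38), Nfe2l2 (-0.25, adjusted p = 0.000128), Mafk (-0.14, adjusted p = 0.0188) and Mafg (-0.14, adjusted p = 0.0339) were then lower with EST, and Bach1 was higher (0.11, adjusted p = 0.0458). Each of these shifts was smaller than the EST effect on the same gene in Vector cells, and those of Nfe2l2 and Mafk had the opposite sign to it. Leaving out either library alone brought 0 of the 9 genes past the threshold. With all libraries kept, the 95% interval of this EST effect was -0.17 to 0.05 for Mafk and -0.07 to 0.13 for Bach1, the genes with the largest rises under EST in Vector cells.

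The interaction passed for 7 of the 9 genes, where 59% of all genes passed, 29.8% upward and 29.2% downward. EST effects in SREBP2 cells lay above those in Vector cells for Nfe2, Mafg and Keap1, which EST lowered in Vector cells, and below them for Bach1, Mafk, Maff and Nfe2l2, which EST raised there. With 0 genes passing for EST in SREBP2 cells, each interaction largely restates the EST effect in Vector cells with its sign turned. This sorting is therefore no separate result. Both SREBP2 groups were also compared across treatments. SREBP2 without EST exceeded Vector+EST for 7 of the 9 genes and fell below it for 0, where 23.4% of all genes passed, 14.4% upward and 8.96% downward, by log2 fold changes from 0.16 for Keap1 (adjusted p = 0.0140) to 1.89 for Nfe2l1 (adjusted p = 5.93e-15). The Keap1 difference passed in 10 of the 12 fits that left out 1 library each, with a highest adjusted p of 0.0616 (without SREBP2 library 3, and 0.0569 without Vector+EST library 1), and it missed the threshold when scaled by library totals (adjusted p = 0.0503). Libraries did not overlap for 7 of the 9 genes there (35.5% of all genes). Against Vector, the SREBP2+EST group was higher for Bach1 (2.88), Maff (2.24), Nfe2l1 (1.83), Mafk (1.51) and Nfe2l2 (0.46) and lower for Keap1 (-0.28), where 72.7% of all genes passed, 38.6% upward and 34.2% downward, and libraries did not overlap for any of the 9 (76.4% of all genes).

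By group, the order of levels differed between the genes. Nfe2 ran Vector, SREBP2, SREBP2+EST and Vector+EST from high to low, and only the last step passed the test. For Nfe2l1 the order was SREBP2, SREBP2+EST, Vector+EST and Vector, with only the middle step passing. Mafk and Maff kept that same order, with both lower steps passing, and Bach1 followed it with the 2 SREBP2 groups exchanged and not differing. Mafg ran SREBP2, SREBP2+EST, Vector and Vector+EST, with only the last step passing, and Keap1 ran Vector, SREBP2, SREBP2+EST and Vector+EST, with only the first. Nfe2l2 ran Vector+EST, SREBP2, SREBP2+EST and Vector, again with only the last step passing, and for Bach2 no neighbours differed.

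Levels were compared between genes per kilobase, using the median length of each gene's annotated transcripts, which the isoforms in these cells may not share. In Vector cells Nfe2 had the highest level of the 9 at 220.4 ± 1.28 CPM per kb, followed by Mafg (137 ± 0.609), Nfe2l2 (62.9 ± 0.975), Keap1 (29.1 ± 0.733), Nfe2l1 (23.6 ± 0.201), Mafk (17.6 ± 0.460) and Bach1 (13.6 ± 0.529), with Bach2 (1.55) and Maff (0.379) near the floor. In Vector+EST cells Nfe2 (84.9 ± 5.61) and Bach1 (78.8 ± 0.957) were close, and the levels of Mafg (97.2 ± 3.73) and Nfe2l2 (96.6 ± 1.31) were the highest. With the longest transcript in place of the median, 3 of the 9 genes kept their rank in Vector, and Nfe2 was still first at 140.2 CPM per kb. In Vector+EST the longest transcripts gave 76.5 for Nfe2l2, 53.98 for Nfe2, 40.2 for Mafk, 29.7 for Bach1 and 16.6 for Mafg, so neither the place of Mafg nor the closeness of Nfe2 and Bach1 held there.

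Ratios within a library do not depend on depth. The log2 ratio of Nfe2 over Bach1 per kilobase was 3.97 to 4.06 in the Vector libraries, -0.00483 to 0.212 in Vector+EST, 0.658 to 1.29 in SREBP2 and 0.707 to 1.17 in SREBP2+EST. The activator gene thus exceeded the repressor gene most in Vector, was about level with it in Vector+EST and lay between in both SREBP2 groups, where library 1 of each group had the ratio of the other group. With the longest transcript the means were 4.78, 0.861, 1.82 and 1.66 in the same order of groups, a shift that was the same in every group. Mafk over Mafg was -2.96 ± 0.04 in Vector, -1.16 ± 0.04 in Vector+EST, -1.57 ± 0.07 in SREBP2 and -1.53 ± 0.06 in SREBP2+EST on the same scale, so the Mafk part of the small MAF transcripts was smallest in Vector and largest in Vector+EST. With the longest transcripts it was -0.53, 1.28, 0.86 and 0.90, so that which of the 2 genes was higher in the last 3 groups turned with the lengths, and the order of the groups did not. Mafk made up 11.4% ± 0.271 of the small MAF level per kilobase in Vector and 30.9% ± 0.601 in Vector+EST, or 40.6% and 70.03% with the longest transcripts, so that the size of this share rests on the lengths and its order over these 2 groups does not.

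**Figure D3:**
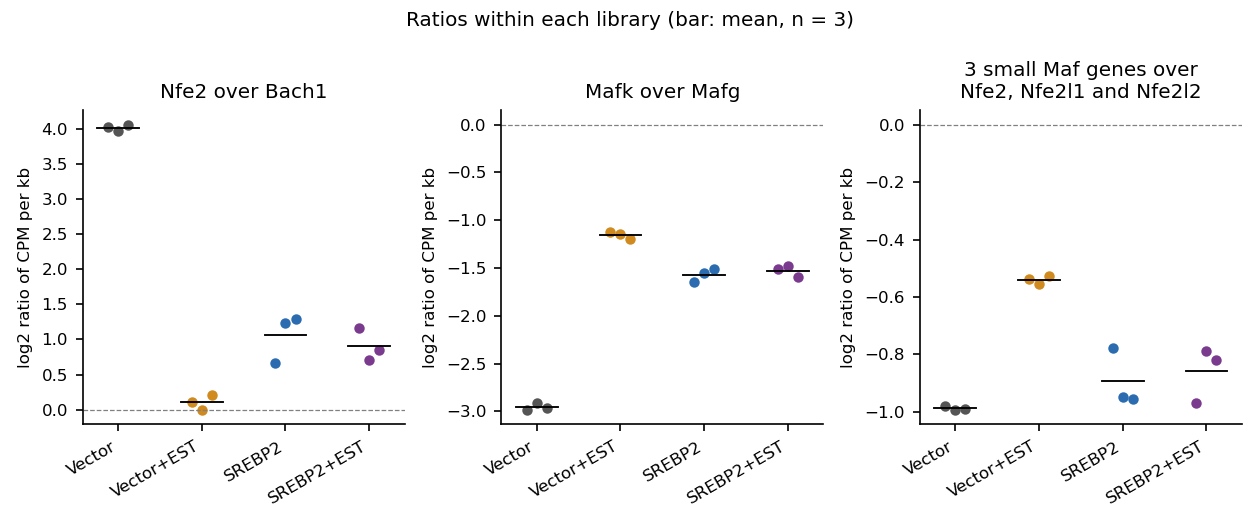
Log2 ratios of CPM per kilobase within each library (y axis) in the 4 groups (x axis), with 1 point a library and the mean of 3 as a line, and a dashed line at 0. Nfe2 over Bach1 falls from 4.02 in Vector to 0.105 in Vector+EST, Mafk over Mafg is lowest in Vector at -2.96, and the summed small MAF genes over the summed CNC genes are highest in Vector+EST.

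The summed level of Mafk, Mafg and Maff over that of Nfe2, Nfe2l1 and Nfe2l2 was -0.99 ± 0.01 in Vector, -0.54 ± 0.02 in Vector+EST, -0.89 ± 0.10 in SREBP2 and -0.86 ± 0.10 in SREBP2+EST as a log2 ratio. With the longest transcripts it was -2.36, -1.35, -1.78 and -1.73 in the same order. Vector+EST lay above all the other libraries with either length. The CNC sum was 307 ± 1.95 CPM per kb in Vector, 206 ± 4.24 in Vector+EST, 391 ± 41.9 in SREBP2 and 359 ± 32.4 in SREBP2+EST, or 205, 146, 263 and 242 with the longest transcripts. The small MAF sum was 155 ± 0.692 and 142 ± 4.38 CPM per kb in Vector and Vector+EST, but 39.9 and 57.3 with the longest transcripts, so its direction under EST turned with the lengths.

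The genes whose log2 CPM followed a member most closely over the 12 libraries, by Pearson's r among genes whose mean log2 CPM was 3 or more, are given as a description, since the 12 points share 4 groups. For Nfe2 these were Cyb5r3 (r = 0.993), which encodes a cytochrome b5 reductase, the zinc finger gene Klf10 (0.991) and the phosphate transporter gene Slc20a1 (0.991). Klf10 stood at 25.2 CPM in Vector, 4.65 in Vector+EST, 22.1 in SREBP2 and 18.9 in SREBP2+EST. For Nfe2l1 they were Tubb2b (0.998), Cyb5b (0.998) and Lss (0.998), the last a cholesterol synthesis gene that stood at 186 and 177 CPM without and 1054 and 1040 CPM with added SREBP2. Bach1 was followed by Ap2a1, Slc46a3 and Ccng2 (0.999 each), and Mafk by Kalrn, Ezr and Marchf5 (0.998 each). Nfe2l2 was followed by Slc29a1 (0.986), Egfl7 and Pfdn1, Keap1 by Pced1b (0.989), Plek and Lrfn4, Mafg by Pkmyt1 (0.993), Gramd1a and Pnpla2, and Maff by Sap130 (0.996), Zfp280b and Acsl4. Among the members themselves r was 0.992 between Bach1 and Mafk, 0.964 between Nfe2l1 and Maff and 0.932 between Nfe2 and Mafg, and -0.853 between Bach1 and Keap1. For Bach2 the highest r was 0.755, with Zfp932, followed by Kbtbd8 (0.722) and Ighmbp2 (0.686).

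Genes that act on the members, or on which they act, were counted next in 6 lists. The counts are to be read against the 70.6% of all genes that passed for EST in Vector cells, the 71.5% for SREBP2 without EST and the 21.9% for SREBP2 with EST, and no list was tested against the other genes. Of 17 genes that control KEAP1, NRF1, NRF2 or BACH1, EST in Vector cells raised 5 and lowered 9 (median log2 fold change -0.09, against 0.01 over all tested genes), SREBP2 without EST raised 6 and lowered 5 (0.01, against 0.03), and SREBP2 with EST raised 4 and lowered 1 (0.01, against -0.00477, but 3 and 2 with a median of -0.0306 when scaled by library totals). Fbxw11, a β-TrCP protein that marks NRF2 for degradation, rose from 62.3 ± 1.16 CPM in Vector to 135 ± 1.997 in Vector+EST (log2 fold change 1.12 ± 0.05, adjusted p = 6.67e-12) and 126 ± 9.25 in SREBP2. Gsk3a, a kinase that prepares NRF2 for β-TrCP, rose by 0.88 with EST in Vector cells and by 0.82 with SREBP2. Cand1, a cullin exchange factor, fell by 0.58 and 0.62. Fbxo22, which marks BACH1 for degradation, fell by 0.39 with EST, and Ddi2 by 0.40 with SREBP2. With EST, Sqstm1, whose protein p62 draws KEAP1 away from NRF2, was higher in SREBP2 cells by 0.33 ± 0.05 (adjusted p = 5.68e-05), and Ddi2, the protease that cuts NRF1 into its active form, had a log2 fold change of -0.22 ± 0.07 (adjusted p = 0.0394). Its libraries overlapped, and this call was lost under 10 of 20 alternatives, with a highest adjusted p of 0.182 without SREBP2+EST library 5. Sel1l, of the degradation machinery of the endoplasmic reticulum, was higher by 0.21 ± 0.05 (adjusted p = 0.00290).

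Of 28 target genes of NRF2 and BACH1, 25 were tested. With EST in Vector cells 7 rose and 13 fell (median -0.14), with SREBP2 without EST 9 rose and 9 fell (-0.06), and with SREBP2 under EST 12 rose and 2 fell (0.15, against -0.00477 over all tested genes, or 10 and 3 when scaled by library totals). Gclc, which sets the rate of glutathione synthesis, stood at 110.5 ± 0.782 CPM in Vector and rose to 204 ± 2.46 CPM with EST, a gain of 0.88 ± 0.04 on the log2 scale (adjusted p = 5.54e-12), and the peroxiredoxin gene Prdx1 rose by 0.67 ± 0.04 (adjusted p = 1.09e-09). The heme transporter gene Slc48a1 fell by 1.17 on the log2 scale and the sulfiredoxin gene Srxn1 by 0.95. Nqo1, a standard readout of NRF2, fell by 0.70 ± 0.07 on the log2 scale with EST, from 17.8 ± 1.17 CPM in Vector to 10.96 ± 0.209 in Vector+EST (adjusted p = 3.98e-07), and stood at 12.5 ± 0.785 CPM in SREBP2. Hmox1, the heme oxygenase gene that BACH1 represses, stayed between 6.99 and 8.14 CPM on average in all groups, and its EST effect in Vector cells was -0.09 (adjusted p = 0.453). Slc7a11, the cystine transporter gene, averaged 1.53 CPM in Vector and 0.329 to 0.503 CPM in the other groups, with an EST effect in Vector cells of -2.19 ± 0.49 (adjusted p = 0.000851).

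In SREBP2 cells the largest rises on this list were those of Idh1 and Me1, which make NADPH and are also known as genes of lipid synthesis that SREBP proteins can activate. Idh1 rose from 48.1 ± 1.65 CPM in Vector to 304 ± 8.10 in SREBP2 (log2 fold change 2.66 ± 0.04, adjusted p = 5.10e-17) and stood at 60.2 ± 1.15 in Vector+EST. Me1 stood at 65.5 ± 1.60 CPM in Vector, 44.8 ± 0.789 in Vector+EST, 148 ± 8.58 in SREBP2 and 145 ± 5.22 in SREBP2+EST. Txnrd1, the thioredoxin reductase gene, went the other way and fell by 0.79 on the log2 scale with SREBP2 (adjusted p = 1.69e-10), as did Slc48a1, by 0.89. With EST, the glutathione transferase gene Gsto1 (-0.32, adjusted p = 0.0115) and Gclc (-0.13, adjusted p = 0.0178) were the 2 genes of the list that were lower in SREBP2 cells. The first call was lost under 2 of 20 alternatives (highest adjusted p 0.0642, without Vector+EST library 3) and the second under 3 (highest 0.104, with the header number as a block).

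Of 19 NFE2 target genes of red cells and platelets 16 were tested. Of these, 2 rose and 8 fell with EST in Vector cells (median -0.23), 5 rose and 7 fell with SREBP2 without EST (-0.08), and 5 rose and 1 fell with SREBP2 under EST (0.12, or 5 and 2 when scaled by library totals). Alas2, which starts heme synthesis in red cells, rose from 52.1 ± 0.167 to 138 ± 6.85 CPM with EST and to 176 ± 12.01 CPM with SREBP2. Itga2b, the megakaryocyte integrin gene, fell from 28.1 ± 1.65 CPM in Vector to 5.14 ± 0.684 in Vector+EST (log2 fold change -2.45 ± 0.13, adjusted p = 9.27e-11) and to 7.23 ± 0.644 in SREBP2. Hsd3b7, a steroid dehydrogenase gene, fell by 1.48 with EST, from 44.4 ± 1.09 to 15.9 ± 0.421 CPM. Pf4, the platelet chemokine gene, stood at 9.46 ± 0.575 CPM in Vector and 6.12 ± 0.437 in Vector+EST, and at 47.7 ± 7.74 and 44.5 ± 5.12 CPM in SREBP2 and SREBP2+EST. With EST its SREBP2 effect was 2.86 ± 0.13 (adjusted p = 4.54e-11) and that of the integrin gene Itgb3 0.74 ± 0.10 (adjusted p = 6.02e-05).

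The α-globin genes of this list were low in both SREBP2 groups, in which Nfe2 was high. Hba-a1 stood at 3089 ± 115 CPM in Vector, where Nfe2 was high, and at 1736 ± 25.97 CPM in Vector+EST, but also at 1634 ± 97.6 in SREBP2 and 1588 ± 74.9 in SREBP2+EST, where Nfe2 was more than 2 times its Vector+EST level. The SREBP2 effect on Hba-a1 was -0.92 ± 0.04 without EST (adjusted p = 1.94e-11), and with EST its log2 fold change was -0.13 ± 0.04 (adjusted p = 0.0467), a call lost under 7 of 20 alternatives (adjusted p = 0.108 without Vector+EST library 5, and at most 0.172, with the header number as a block). Hba-a2 had EST and SREBP2 effects of -0.87 ± 0.05 and -0.86 ± 0.05. Hbb-b1 did not pass in any of the EST effect in Vector cells (-0.12, adjusted p = 0.0922), the SREBP2 effect without EST (-0.06, adjusted p = 0.389) and that with EST (-0.06, adjusted p = 0.562), but the first passed under 10 of 20 alternatives. Hbb-b2 was higher with SREBP2, by 0.52 ± 0.12 without EST (adjusted p = 0.000707) and 0.47 ± 0.12 with EST (adjusted p = 0.00870). Globin copies are near-identical, so reads may be divided between them and single globin genes are uncertain.

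**Figure D4:**
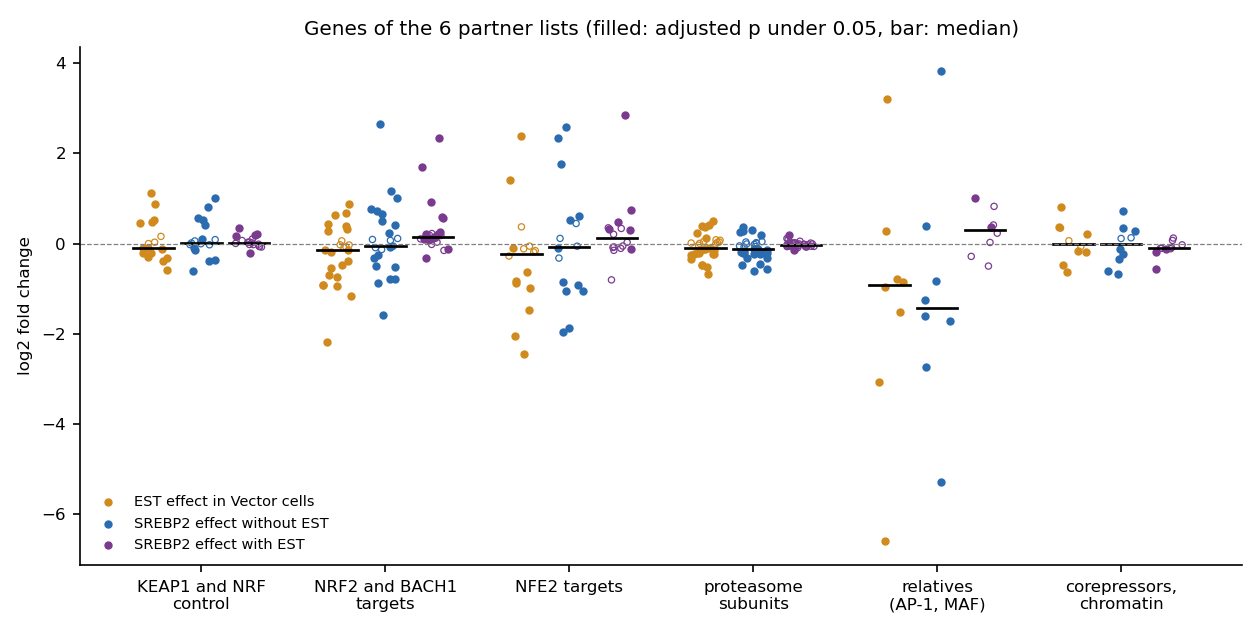
Log2 fold changes (y axis) of the tested genes of 6 lists (x axis) in 3 comparisons, with 1 point a gene, filled where the adjusted p was under 0.05, and the median as a bar. The SREBP2 effect with EST lies close to 0 for the proteasome subunits, with a median of -0.03, and above 0 for most NRF2 and BACH1 targets, with a median of 0.15, and the lowest points are those of Fosl1 among the relatives.

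Proteasome genes are known targets of NRF1. Of 31 subunit genes, all tested, SREBP2 with EST raised 1 (Psmd11, 0.19 ± 0.04, adjusted p = 0.00609) and lowered 1 (Psmb3, -0.15 ± 0.04, adjusted p = 0.0162, a call lost under 3 of 20 alternatives, with 0.0913 as the highest adjusted p, with the block), with a median of -0.03, where scaling by library totals gave 1 and 5. SREBP2 without EST raised 5 and lowered 17 (median -0.12, against 0.03 over all tested genes), and EST in Vector cells, where Nfe2l1 did not pass, raised 6 and lowered 16 (-0.11, against 0.01). Psmc6 rose by 0.49 with EST and 0.37 with SREBP2, Psmc2 by 0.42 with EST and Psmd4 by 0.31 with SREBP2. Psmd7 fell by 0.68 and 0.56, and Psmd3 fell from 337 ± 3.12 CPM in Vector to 234 ± 7.87 in Vector+EST and 222 ± 20.1 in SREBP2.

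The list of relatives held AP-1 genes, the large MAF genes and others, of which 13 of 15 were in the table and 8 were tested. In Vector cells 2 rose and 6 fell with EST (median -0.91), SREBP2 without EST gave the same counts (-1.43), and SREBP2 with EST raised 2 (0.30). Jund was the most abundant of them and fell from 163 ± 9.83 CPM in Vector to 57.2 ± 6.43 in Vector+EST (log2 fold change -1.51 ± 0.08, adjusted p = 4.87e-11) and 68.5 ± 2.01 in SREBP2. Junb fell by 0.96 with EST and by 0.83 with SREBP2, and Jun rose by 0.29 (adjusted p = 0.00728) and 0.39 (adjusted p = 0.000734), the first a call lost under 2 of 20 alternatives (highest adjusted p 0.0715, without Vector+EST library 5). With EST, Jund was higher in SREBP2 cells by 0.38 ± 0.08 (adjusted p = 0.00272). Fosl1, named after its values were seen, stood at 2.35 ± 0.0492 CPM in Vector and at or under 3 counts in the other 9 libraries, so its fitted fold changes are not a measure of size.

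Among 10 corepressors and chromatin partners of BACH and MAF proteins, EST in Vector cells raised 3 and lowered 4, SREBP2 without EST raised 3 and lowered 5, and SREBP2 with EST lowered 3 (median -0.11), or 5 when scaled by library totals. Crebbp, a coactivator with acetyltransferase activity that binds NFE2, rose from 20.6 ± 0.728 CPM in Vector to 36.2 ± 3.33 in Vector+EST (log2 fold change 0.81 ± 0.08, adjusted p = 1.34e-07). Chd6, a chromatin remodeller gene, rose by 0.37 with EST and by 0.35 with SREBP2. Xpo1, which exports BACH1 from the nucleus, fell by 0.64 with EST and by 0.68 with SREBP2. Smarca4, the BRG1 remodeller that NRF2 recruits, stood at 291 ± 4.33 CPM in Vector, 209.0 ± 3.33 in Vector+EST, 190.3 ± 8.29 in SREBP2 and 182 ± 12.3 in SREBP2+EST. With EST its SREBP2 effect was -0.20 ± 0.05 (adjusted p = 0.00626), and that of the deacetylase gene Hdac1 was -0.13 ± 0.04 (adjusted p = 0.0157), a call lost under 3 of 20 alternatives (highest adjusted p 0.0611, without Vector+EST library 5).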

How the data were processed

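Total RNA of G1E-ER4 cells was purified by oligo(dT), made into libraries and sequenced as 50-base single ends on a BGISEQ-500. The authors deposited unnormalized estimated counts for 17210 genes, and 66.5% of the values were whole numbers. The submitters' processing notes name HISAT2 2.0.4, Bowtie2 2.2.5, RSEM 1.2.12, DESeq2 1.4.5 and the build GRCm38.p6, without roles. A second deposited table held only the authors' own comparisons (fold changes and p-values) and was not used.

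Groups came from sample titles. Column headers gave a group and a number that differs from the replicate numbering of the titles. Expected counts were rounded to whole numbers, filtered by filterByExpr (11177 genes kept, 6033 left out), scaled by TMM and tested with edgeR 4.0.16 in R 4.3.3 (quasi-likelihood F-test, all 12 libraries in 1 fit, 7 contrasts, Benjamini-Hochberg, threshold 0.05). This design was chosen here, since the paper states comparisons and cut-offs but no model for the counts. Standard errors are the log2 fold change over the square root of F. On simulated counts with 200 of 11177 genes changed in 1 group, this step recovered 178 of them, and 7 of its 185 calls were false. In the data 70.6% of genes were called for EST in Vector cells, so the simulation does not cover scaling at such a share. CPM are after TMM, and log2 CPM for correlations had 2 counts added as a prior. Transcript lengths and overlaps came from GENCODE M21 and promoter windows from RefSeq, both on GRCm38. The floor of 3 counts covers counting error only, and intervals of fold changes come from the spread between libraries in the fit.

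The members, the lists of partners and markers, and the 6 motifs were chosen with earlier results of these data known. Genes named were all members, for each of them the 3 most alike, the 2 largest rises and falls of each list in 3 comparisons that were called and had a mean log2 CPM of 3 or more, and Hmox1, Nqo1, Slc7a11 and 4 globin genes whatever their values, and 1 gene under this rule is not reported here. Alternatives were DESeq2 1.42.0, other scalings and filters, a block, fewer libraries, and other lengths.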

Additional observations from a re-analysis of the deposited data

Results flagged for a closer look

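The EST effect differed between SREBP2 and Vector cells, by the interaction test of edgeR with Benjamini-Hochberg adjustment over all 11177 genes, for 7 of the 9 genes. The difference, as the EST effect in SREBP2 cells minus that in Vector cells on the log2 scale, was 1.25 for Nfe2 (adjusted p = 2.19e-06), 0.40 for Mafg (adjusted p = 1.98e-05) and 0.33 for Keap1 (adjusted p = 0.000217), the 3 genes that EST lowered in Vector cells. It was -2.51 for Bach1 (adjusted p = 2.43e-13), -1.37 for Mafk (adjusted p = 2.55e-10), -0.76 for Nfe2l2 (adjusted p = 4.39e-07) and -0.80 for Maff (adjusted p = 0.0207), the 4 genes that EST raised there. An interaction was also called for 59% of all tested genes. For EST in SREBP2 cells 0 genes passed, so each difference largely restates the EST effect in Vector cells with its sign turned. The pattern of Nfe2 was also known when the genes were chosen. Without SREBP2 library 1 and SREBP2+EST library 1 the 7 values were 1.04, 0.39, 0.31, -2.39, -1.41, -0.83 and -0.75 in the order given here, and the Maff value no longer passed the threshold (adjusted p = 0.0545).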

How the results depend on the processing

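Of the 41 member results past the threshold, 791 of 813 values under the alternatives kept direction and call, 22 kept the direction but lost the call, and 0 reversed. The calls lost were those of Maff (EST in Vector cells, interaction), Nfe2l2 and Mafk (SREBP2 with EST) and Keap1 (SREBP2 against Vector+EST). Among the 22 member results not past it, 410 of 438 values kept their side, 19 passed and 9 reversed. Of the 70 results of named partner genes past it, 1368 of 1398 values kept their call, 30 lost it and 0 reversed, and of the 10 not past it 178 of 198 kept their side, 15 passed and 5 reversed. The lost calls were Ddi2, Gclc, Gsto1, Hba-a1, Hdac1 and Psmb3 for SREBP2 with EST and Jun for EST in Vector cells. Without SREBP2 library 1 and SREBP2+EST library 1, which were picked in these same data, the members past the threshold for EST in SREBP2 cells went from 0 to 5 and all genes from 0 to 1567, and the cause was not tested. All genes passing there were also 12 by DESeq2, 22 without a low-count filter, 8 with only the 6 libraries compared and 18 without Vector+EST library 5.

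Values that reversed had not passed the threshold. Nfe2l1 under EST in Vector cells became -0.0017 with at least 10 counts in every library. Leaving out 1 library, or both libraries 1, gave ranges from -0.0086 to 0.060 for Nfe2l1 and -0.041 to 0.45 for Bach2 under EST in Vector cells, -0.17 to 0.039 for Nfe2 with SREBP2 without EST, -0.0055 to 0.11 for Bach1 under EST in SREBP2 cells, and -0.070 to 0.047 for Nfe2l2 and -0.13 to 0.35 for Bach2 in SREBP2 against Vector+EST. The ranges of Hbb-b1 were -0.14 to 0.011 for SREBP2 without EST and -0.095 to 0.0036 with EST, and that of Slc7a11 was -0.37 to 0.62 for SREBP2 with EST. Scaled by library totals, list medians for SREBP2 without EST were -0.046 for KEAP1 and NRF control, -0.11 for NRF2 and BACH1 targets, -0.18 for proteasome subunits and -0.060 for corepressors, and with EST -0.072 for proteasome subunits. With the longest transcripts, 3 of the 9 levels per length kept their rank in Vector.

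The number in the table header did not pair the libraries: over 13 same-numbered pairs the correlation of deviations ran from -0.174 to 0.0674. With it as a block, the members past the threshold for SREBP2 with EST fell from 7 to 5 and all genes from 2448 to 1595, and Mafk (0.20, adjusted p = 0.0550) and Nfe2l2 (-0.13, adjusted p = 0.213) lost their calls there, as did Maff for the interaction (-0.73, adjusted p = 0.0955). Maff and Bach2, at 74 and 30.56 counts at most, are limited by depth.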
